A study of Mus musculus with 4 samples.

Results

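The V and J gene segments of the T cell receptor alpha chain were measured in the RNA of mouse regulatory T cells. The segments were chosen by name, as every gene whose GENCODE symbol starts with Trav or Traj. They numbered 188 of the 50600 genes counted, with 128 V and 60 J segments. The RNA came from primary regulatory T cells of strain C57BL/6NJ and was sequenced in 4 libraries, given as biological replicates 1 to 4 of 1 group. No treatment or altered allele is named, age is unknown and sex was not collected. A protocol for the differentiation of CD4+ T cells is linked, and names in the file headers contain "activated", "sorted" and 72 h, with no further detail in the records. With 1 group there was no contrast between conditions, and the segments were compared with each other and between libraries.

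An alpha chain gene is assembled in the thymus, where the RAG recombinase joins 1 of many V segments to 1 of many J segments upstream of the constant region gene Trac. The V segment encodes most of the variable domain, the J segment encodes its last strand, and the joint between them forms a loop that contacts the antigen. A developing cell can rearrange the same allele again, each time with a V segment farther 5′ and a J segment farther 3′. In C57BL/6 mice a stretch of the V array is present in several copies, and segment names with the letters d or n mark members of these copies.

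Both arrays lie on chromosome 14 in mm10, on the plus strand. The V array runs from chr14:52427928 to 53977678, the J array from chr14:54155005 to 54218842, and Trac from chr14:54220521 to 54224206. Most V segments are annotated as a leader exon and a V exon, some V pseudogenes as a single exon, and a J segment as a single short exon. Exon length ranged from 155 to 595 bases in V segments and from 29 to 72 bases in J segments. A count is a read pair that overlapped the exons of 1 gene. A pair that touched both a V and a J segment, or a J segment and Trac, was assigned to neither, and a pair that aligned to several places was not counted. In a spliced chain the J exon lies between V and Trac. A pair from such a chain thus counted for J only if its aligned bases stayed within that exon. J counts may therefore come mostly from other RNA than spliced chains, which was not tested. The counts do not separate rearranged, spliced chains from unspliced or unrearranged RNA that holds a segment. In what follows, "used" means only that a segment had counts.

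The libraries held 46044354, 72147632, 94983494 and 32648138 counts. All 6 regulatory T cell markers, Foxp3 and Il2ra among them, reached 1 TPM (a transcript level scaled for exon length and library total) in every library, and their summed level was 4580 to 4958 TPM. The summed level was 0.663 to 1.04 TPM for 3 B cell markers, of which none was at 0 throughout, and 0 to 0.0664 TPM for 3 myeloid markers. The 6 gamma-delta T cell markers summed to 3.62 to 3.99 TPM, and of the CD8 pair Cd8b1 stood at 14.4 ± 2.09 TPM (SD, n = 4) with Cd8a at 0.332 ± 0.274 TPM. All libraries share 1 donor record, and nothing states that the replicates were separate animals or cultures, so p-values cover only the scatter of these 4 samples, part of which may be technical. Xist, a transcript of the inactive X chromosome, had 80991 and 129767 counts in replicates 1 and 2 and 285 and 429 in replicates 3 and 4. The Y-linked gene Eif2s3y had 5, 12, 6059 and 2830 counts. By these genes, chosen after their values were seen, replicates 1 and 2 had the pattern of female cells and replicates 3 and 4 that of male cells. The 4 libraries thus did not all come from 1 animal, although they share 1 donor record.

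V segments together held 2004, 3862, 5244 and 1846 counts in replicates 1 to 4, or 52.2 ± 5.92 CPM (counts scaled to a common library total; SD, n = 4). J segments held 450, 454, 650 and 289 counts, or 7.94 ± 1.64 CPM. Trac, which every complete alpha chain transcript carries, held 13340, 22729, 33327 and 11700 counts. For every 100 Trac counts there were 15.02, 16.99, 15.73 and 15.78 V counts, a spread of 15.9 ± 0.817 over the libraries. The same ratio for J counts was 3.37, 2.00, 1.95 and 2.47, so replicate 1 was the highest for J and the lowest for V. V counts exceeded J counts by 2.73 ± 0.43 on the log2 scale in 4 of 4 libraries (two-sided exact permutation by sign flips, p = 0.13, also after adjustment over 3 contrasts). No smaller p is possible with 4 libraries. Per kilobase of exon the order turned, at 67.9 ± 33.98 counts for V and 129.1 ± 41.4 for J segments, a log2 difference of -1.01 ± 0.43.

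Of the 128 V segments, 78 had at least 1 count and 50 had none in any library. In single libraries 60, 70, 71 and 67 V segments were seen, 53 were seen in all 4, and 38 had at least 10 counts in every library. Thinned to the 1846 V counts of replicate 4, the expected numbers were 59.9, 69.4, 68.1 and 67, and replicate 1 was the lowest both ways. Among segments annotated as functional, 72 of 108 had counts, against 6 of 20 pseudogenes, and pseudogenes held 1.45 ± 0.584% of V counts. The 10 segments with dv in their names, which can also join to delta chain segments, held 17.9 ± 1.14% of V counts. Trdc, the delta constant region, stood at 1.44 ± 0.305 TPM, and 5 delta V genes summed to 2.39 to 9.36 TPM. Which chain the dv counts came from was not tested.

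The V counts were spread over many segments. Replicate 1 needed 9 segments to reach 50% of its V counts, and replicates 2 to 4 needed 14, 14 and 13. To reach 90% took 36, 41, 42 and 42 segments. The effective number of V segments, the number of equally frequent segments that would give the same Shannon entropy, was 36.7, 45.6, 46.6 and 45.1 (43.5 ± 4.55, SD, n = 4). Replicate 1 lay below the others, and without it the mean was 45.8.

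**Figure D1:**
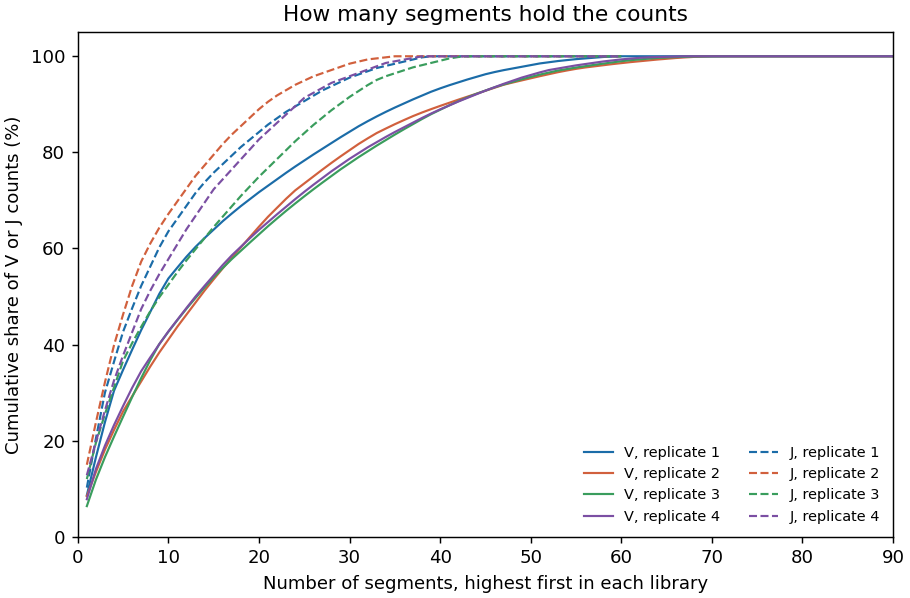
Cumulative share of V counts (solid lines) and J counts (dashed lines), in percent, against the number of segments taken from the highest down in each of 4 libraries. The V line of replicate 1 reaches 50% with 9 segments and the others with 13 or 14, while J lines reach it with 6 to 10.

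The Trav14 family led the V counts, with 27.5%, 24.7%, 23.0% and 25.8% in replicates 1 to 4 (25.3 ± 1.92%, SD, n = 4). Its counts lay in 5 of 9 segments, and each of those 5 had at least 10 counts in every library. The next families were Trav9 (10.04 ± 1.71%), Trav7 (9.25 ± 1.35%), Trav6 (9.15 ± 2.31%), Trav13 (8.13 ± 1.30%) and Trav4 (6.55 ± 1.21%). Trav14 exceeded each of them in every library, whereas the Trav9, Trav7 and Trav6 shares overlapped. The last 160 bases of the V exons of the 5 counted Trav14 segments are shown because they were told apart by few bases. Capitals mark the 16 positions at which the 5 sequences differ (GENCODE M21 transcripts, mm10, plus strand, 5′ to 3′).
Trav14n-3: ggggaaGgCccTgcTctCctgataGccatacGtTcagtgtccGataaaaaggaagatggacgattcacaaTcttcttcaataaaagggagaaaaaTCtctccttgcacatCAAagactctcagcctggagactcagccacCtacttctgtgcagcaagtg
Trav14d-3-dv8: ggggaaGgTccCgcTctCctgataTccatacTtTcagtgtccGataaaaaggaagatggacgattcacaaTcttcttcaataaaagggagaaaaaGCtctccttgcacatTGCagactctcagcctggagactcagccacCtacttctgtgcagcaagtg
Trav14-3: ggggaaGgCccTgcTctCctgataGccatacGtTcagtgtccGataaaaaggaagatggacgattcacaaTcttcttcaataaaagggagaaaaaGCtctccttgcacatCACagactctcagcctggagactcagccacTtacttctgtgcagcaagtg
Trav14-2: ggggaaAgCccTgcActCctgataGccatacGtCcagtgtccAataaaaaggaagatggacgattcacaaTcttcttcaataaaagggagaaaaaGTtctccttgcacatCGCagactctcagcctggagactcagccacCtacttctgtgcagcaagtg
Trav14-1: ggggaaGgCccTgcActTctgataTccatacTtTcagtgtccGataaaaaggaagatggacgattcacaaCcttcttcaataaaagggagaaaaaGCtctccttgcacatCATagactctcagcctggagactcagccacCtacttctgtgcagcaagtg
Identity between pairs over these bases was 93.8% to 98.1%. Trav14n-3 and Trav14-3 differed at 3 positions, the closest pair.

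Trav14n-3 (chr14:53370077-53370575) was the V segment with the highest mean share and had 158, 326, 288 and 144 counts in replicates 1 to 4 (7.41 ± 1.31% of V counts). Trav14d-3-dv8 (chr14:53078452-53079045) had 173, 194, 334 and 116 counts (6.58 ± 1.502%). Their ranges overlapped, and the second was the higher in replicates 1 and 3. Trav14-2 (chr14:53640701-53641225) had 45, 180, 247 and 73 counts (3.89 ± 1.15%). Trav14-3 (chr14:53763173-53763694) had 29, 158, 224 and 90 counts (3.67 ± 1.52%), and its lowest share, 1.45%, was in replicate 1. Trav14-1 (chr14:53554022-53554558) went the other way, with 147, 97, 111 and 53 counts (3.71 ± 2.44%) and its highest share, 7.34%, in replicate 1. Relative to its mean, the family share varied less between libraries than the share of any of the 5 members.

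The other 4 Trav14 segments, Trav14d-1, Trav14d-2, Trav14n-1 and Trav14n-2, had no count. None of their 50-base windows was unique, meaning found in no other T cell receptor gene, while the 5 counted members had 43.3% to 95.1% unique windows. The same held across the V array. Of the 46 V segments with at most 5% unique windows, 40 had no count and no other exceeded 8 counts over the 4 libraries. Of the 82 with more unique sequence, 72 had counts. A segment with no count and no unique sequence was thus not measurable here, and no absence can be read from it. The 10 with more unique sequence and no count were 8 pseudogenes and the functional segments Trav15d-1-dv6d-1 (12.7% unique windows) and Trav23 (100%), named after their values were seen.

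**Figure D2:**
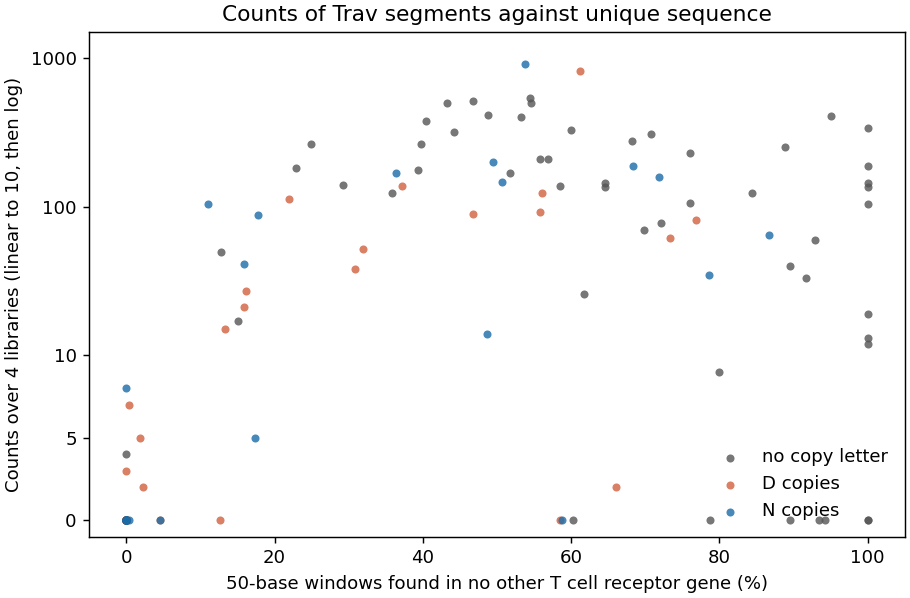
Counts summed over 4 libraries for each of 128 V segments (vertical axis, linear up to 10 and logarithmic above) against the percentage of its 50-base windows found in no other T cell receptor gene, coloured by the copy letter in the symbol. Segments at or near 0% have 8 counts or fewer.

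Other leading V segments came from several families. Trav13-1 (chr14:53545014-53545525) had 131, 120, 208 and 44 counts (4.00 ± 1.81%), with its share in replicate 1, 6.54%, above the 2.38% to 3.97% of the others. Trav4-4-dv10 (chr14:53683647-53684177) had 75, 149, 214 and 79 counts (3.99 ± 0.239%), the steadiest of the 35 V segments with a mean share of at least 1%. Trav17 (chr14:53806639-53807115), a family of 1 segment with only unique windows, was also steady at 46, 113, 134 and 45 counts (2.55 ± 0.270%). Among those 35 the coefficient of variation between libraries had a median of 38.2% and a range of 5.98% to 69.5%, the last for Trav13-4-dv7. The rest of the 15 with the highest mean shares were Trav9-2, Trav6-7-dv9, Trav3-3, Trav9-4, Trav9-1, Trav12-2 and Trav12-3, with means of 2.34% to 3.18%. Neighbours in this order overlapped between libraries, so ranks below the leading pair are not resolved. A higher share may come from more cells with the segment or from more RNA per cell, which cannot be told apart in bulk RNA. Counted segments may also lose pairs that align to several places, to unlike degrees. Unique windows were 43.3% in Trav14-3, 46.8% in Trav4-4-dv10 and 100% in Trav17. The part of such losses in the shares and ranks was not tested.

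**Figure D3:**
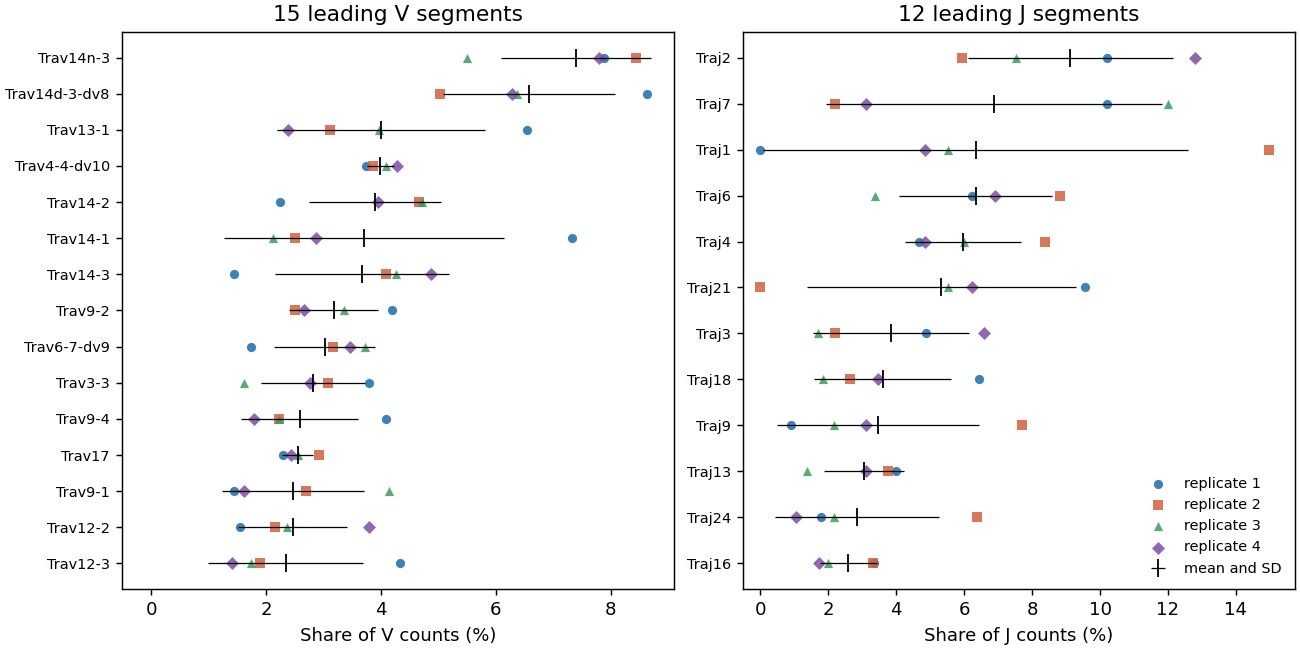
Shares of V counts of the 15 leading V segments (left) and of J counts of the 12 leading J segments (right), in percent, for each of 4 libraries (symbols), with the mean and SD (black). Trav4-4-dv10 and Trav17 are narrow, Trav14-1 is highest in replicate 1, and the J segments spread more than the V segments.

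The 64 V segments nearer Trac, from Trav5n-3 on, held most of the V counts. Their share was 78.1%, 79.3%, 74.9% and 75.5% in replicates 1 to 4, with 95% Wilson intervals within 73.5% to 80.5% that cover counting error only. The log2 ratio of their counts to those of the 64 farther segments was 1.74 ± 0.17, at 1.83, 1.93, 1.57 and 1.62 (two-sided exact permutation by sign flips, p = 0.13, raw and adjusted). By blocks of 32 segments from the 5′ end, the shares were 8.77 ± 1.28% (Trav1 to Trav5d-3), 14.3 ± 2.18% (to Trav9n-3), 30.1 ± 0.690% (to Trav13-1) and 46.8 ± 1.49% (Trav14-1 to Trav23). Unique sequence moved with position: 33 of the 64 farther segments had at most 5% unique windows, against 13 of the 64 nearer. The 82 segments above that limit, split anew at their own middle rank, gave a ratio of 0.79 ± 0.08, a choice made after the data were seen. The dividing line thus moved, so 0.79 and 1.74 do not compare the same stretches of the array. With every duplicated copy and its namesakes left out, 17 segments remained. Also split at their own middle, with 8 on each side, they gave a ratio of 0.17 ± 0.58, at 1.00, 0.10, -0.16 and -0.27 (exact permutation by sign flips, p = 0.875). Among the segments without copies, the libraries thus differed in sign. With 4 libraries this test cannot pass 0.05 at any size of difference. The shares of the nearer 64 were also higher in replicates 1 and 2 than in 3 and 4, the same split as for Xist, and its part was not tested.

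**Figure D4:**
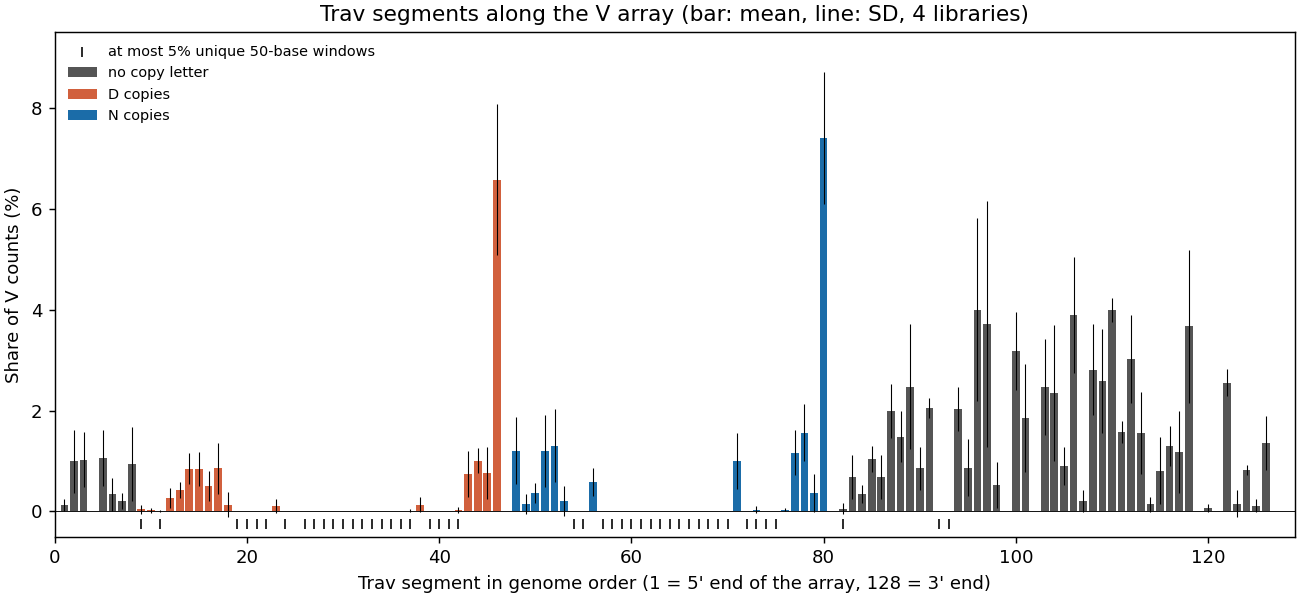
Mean share of V counts, in percent, of each of 128 V segments in genome order (bars; lines, SD over 4 libraries), coloured by copy letter, with ticks under segments that have at most 5% unique 50-base windows. Ticks crowd the middle of the array, where Trav14d-3-dv8 and Trav14n-3 are the tallest bars.

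The copies differed in how many members had counts. Segments with no copy letter had counts in 46 of 55 cases, those with d in 18 of 39 and those with n in 14 of 34. They held 70.1 ± 1.61%, 13.3 ± 1.78% and 16.6 ± 0.832% of V counts. Trav14d-3-dv8 and Trav14n-3 alone made up much of the last pair of shares, at 6.58% and 7.41%. Among the segments with d or n and no count, only Trav15d-1-dv6d-1, Trav15d-3 and Trav15n-3 had more unique windows than the limit used above. No absence can be read from the others, so these numbers do not compare use between the copies. Pairs that align to several places were not counted, and their part in these shares was not tested.

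J segments were seen more sparsely. Of 60, 52 had at least 1 count. The other 8, Traj60, Traj58, Traj57, Traj56, Traj55, Traj51, Traj50 and Traj41, all lay among the 30 farther from Trac, and 3 of them are pseudogenes. A count of 0 allows a share of up to 0.667%, 0.661%, 0.462% and 1.04% of J counts in replicates 1 to 4, for counting error only. Single libraries held 39, 35, 43 and 38 J segments, 22 were seen in all 4, and 5 had at least 10 counts in every library: Traj18, Traj6, Traj4, Traj3 and Traj2. Thinned to 289 J counts, the expected numbers were 37.8, 33.4, 41.1 and 38. The effective number of J segments was 25.5, 22.0, 30.9 and 26.8 (26.3 ± 3.68, SD, n = 4), lowest in replicate 2.

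J counts were higher nearer Trac in every library. The 30 J segments from Traj31 to Traj1 held 78.0% of J counts in replicate 1 (95% Wilson interval 73.9% to 81.6%), 85.5% in replicate 2 (81.9% to 88.4%), 86.0% in replicate 3 (83.1% to 88.5%) and 87.2% in replicate 4 (82.9% to 90.6%). Their counts exceeded those of the 30 farther segments by 2.44 ± 0.42 on the log2 scale, at 1.83, 2.56, 2.62 and 2.77 (two-sided exact permutation by sign flips, p = 0.13, raw and adjusted). By blocks of 15 the shares were 3.81 ± 0.729% (Traj61 to Traj47), 12.03 ± 3.61% (Traj46 to Traj32), 26.7 ± 3.76% (Traj31 to Traj17) and 57.5 ± 6.22% (Traj16 to Traj1). In the first block 8 of 15 segments had counts and none did so in every library, whereas in the last all 15 had counts and 13 did so in every library. Spearman's rho between mean share and nearness to Trac was 0.84 over the 60 segments, and 0.48, 0.66, 0.75 and 0.73 in single libraries. These points share the same libraries, so rho is a description. For V segments rho was 0.33 over 128. Unspliced RNA of a rearranged gene also holds every J segment between the joined one and Trac, and its part in these counts was not tested.

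**Figure D5:**
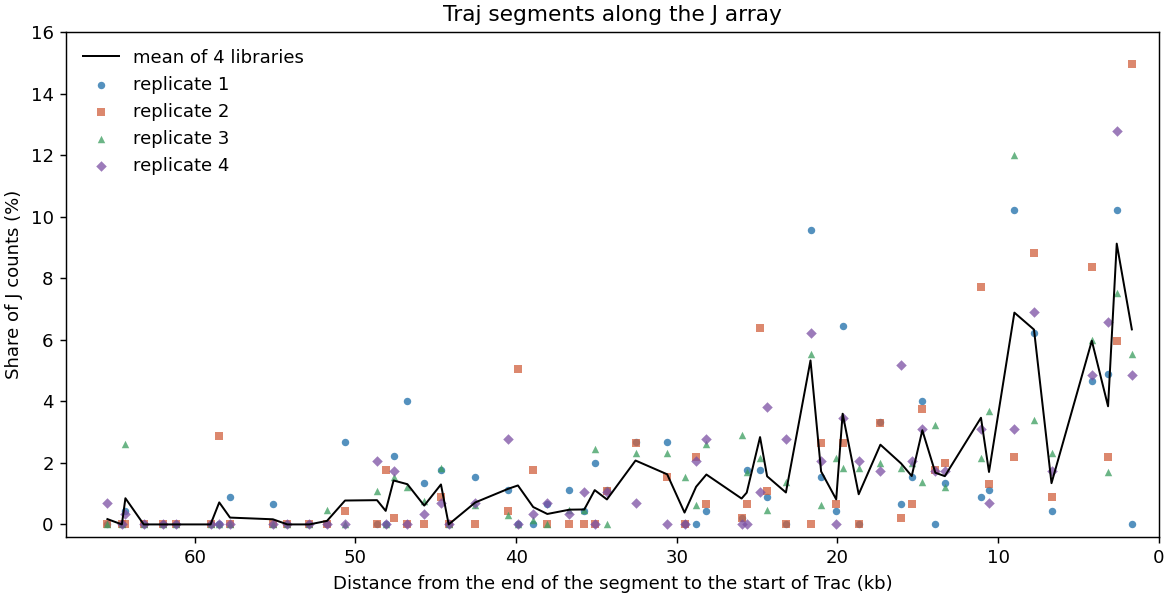
Share of J counts, in percent, of each of 60 J segments against the distance of its end to the start of Trac in kb, for 4 libraries (symbols) and their mean (line). Beyond 50 kb no mean exceeds 0.852%, although single libraries reach 2.86%, and the 12 highest means lie within 24.8 kb of Trac.

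All 12 J segments with the highest mean shares lay among the 30 nearer Trac. The 5 highest are printed with Traj18 and Traj33, which also occur in the invariant chains of other T cells. Added to them are 3 of the functional segments that had no count, so that both ends of the array can be compared. Capitals mark the pattern TTNGGNNNNGGN (N, any base) in GENCODE M21 transcripts (mm10, plus strand, 5′ to 3′). It covers the codons around the phenylalanine and glycines conserved in most J segments. Its first codon, TTN, can also encode leucine, as TTG does in Traj7, so a match need not hold the phenylalanine.
Traj2: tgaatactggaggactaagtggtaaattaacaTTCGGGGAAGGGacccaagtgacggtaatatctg
Traj7: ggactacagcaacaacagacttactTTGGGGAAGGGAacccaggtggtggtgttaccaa
Traj1: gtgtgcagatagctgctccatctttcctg
Traj6: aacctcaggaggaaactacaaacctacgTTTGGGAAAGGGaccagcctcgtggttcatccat
Traj4: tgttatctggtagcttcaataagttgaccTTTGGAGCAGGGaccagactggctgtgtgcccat
Traj18: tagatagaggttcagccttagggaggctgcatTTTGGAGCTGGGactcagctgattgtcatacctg
Traj33: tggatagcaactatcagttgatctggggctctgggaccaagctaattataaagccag
Traj56: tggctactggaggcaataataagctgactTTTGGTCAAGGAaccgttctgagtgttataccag
Traj57: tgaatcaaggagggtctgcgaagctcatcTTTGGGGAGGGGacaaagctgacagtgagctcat
Traj58: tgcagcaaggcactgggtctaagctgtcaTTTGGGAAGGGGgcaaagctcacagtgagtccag
The pattern was searched on the coding strand only and occurred in 46 of 60 J segments (76.7%), 44 of 51 functional segments and 2 of 9 pseudogenes. It was in 23 of the 30 nearer and 23 of the 30 farther segments, and in 4 of the 5 functional segments without counts.

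Traj2 (chr14:54217836-54217901), 2.62 kb from Trac, led the J counts with 46, 27, 49 and 37 in replicates 1 to 4 (9.13 ± 3.02% of J counts, SD, n = 4). Traj6 (chr14:54212688-54212749) had 28, 40, 22 and 20 counts (6.33 ± 2.25%). Traj4 (chr14:54216291-54216353) had 21, 38, 39 and 14 (5.97 ± 1.71%). These 3 were present in every library, and their shares overlapped. Traj7 (chr14:54211470-54211528) was uneven, with 46, 10, 78 and 9 counts (6.89 ± 4.95%), high in replicates 1 and 3. It did not pass the filter of the test of variation between replicates. In the settings that tested it, edgeR's adjusted p was 0.494 to 1, so it was not called. Traj1 (chr14:54218814-54218842), an annotated pseudogene of 29 bases nearest to Trac, had 0, 68, 36 and 14 counts (6.34 ± 6.26%). It was the highest J segment of replicate 2 and was not seen in replicate 1, and without replicate 2 its mean share was 3.46%.

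Traj21 (chr14:54198790-54198846) showed the opposite pattern, with 43, 0, 36 and 18 counts (5.33 ± 3.96%), absent only from replicate 2. Farther from Trac, Traj38 had 23 counts in replicate 2 and none elsewhere, the widest relative spread of the 32 J segments with a mean share of at least 1%. Its value and that of Traj11, the steadiest at 6, 9, 8 and 5 counts, are given because they bound that spread. The coefficient of variation had a median of 73.5% in these 32 J segments. The rest of the leading 12 were Traj3, Traj18, Traj9, Traj13, Traj24 and Traj16, with means of 2.59% to 3.84%. Without replicate 2 the mean of Traj9 was 2.05% instead of 3.47% and that of Traj24 1.66% instead of 2.84%.

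Shares of single segments were more alike between libraries for V than for J. Pearson's r between libraries was 0.76 to 0.91 over the 78 V segments with counts and 0.22 to 0.70 over the 52 J segments with counts, as a description across segments, which are not replicates. For V the 3 pairs with replicate 1 gave 0.76 to 0.77 and the other 3 pairs 0.87 to 0.91. J shares rest on 289 to 650 counts per library and V shares on 1846 to 5244.

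Variation between replicates was also tested over the whole table, with edgeR's goodness-of-fit test against the dispersion of genes of like abundance. The test called 51 of 13478 genes, 0.378%, at a Benjamini-Hochberg adjusted p under 0.05. Of the 37 V and 3 J segments that passed the filter on low counts, 0 were called. In edgeR's test 3 V segments had an unadjusted p under 0.05, namely Trav14-3, Trav7n-4 and Trav9-1, as did 0 J segments and 805 of all genes (5.97%). The median test statistic was 3.34 for the 37 V and 3.62 for the 3 J segments, above the 2.11 of all genes tested. Unfiltered, the medians were 2.53 (V) and 2.54 (J), against 2.12. Without replicate 3 the J median was 0.456, below the 1.27 of all genes. The V median lay above that of all genes in every setting, and the J median in all others that tested J segments. With no filter on low counts 38 of 22353 genes were called, 0.170%, with 0 of 78 V and 0 of 52 J segments. At the share of calls among all genes, under 1 call would be expected in 40 segments, so the count of 0 is near the background and is not a result about the segments.

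Invariant alpha chains mark specialised T cell types. Trav11 (chr14:53519303-53519859) and Traj18 (chr14:54200777-54200842) form the chain of invariant natural killer T cells. Traj18 had 29, 12, 12 and 10 counts (3.60 ± 2.01% of J counts), present in every library and highest in replicate 1. Trav11 had no count, but it was identical to Trav11d over 342 compared bases and had 0% unique windows, so its level was not measurable. The pseudogene Trav11n, with 8 differences from Trav11 in those bases, had 0, 24, 11 and 0 counts. The first 120 bases of both are shown, with their differing positions in capitals (GENCODE M21 transcripts).
Trav11: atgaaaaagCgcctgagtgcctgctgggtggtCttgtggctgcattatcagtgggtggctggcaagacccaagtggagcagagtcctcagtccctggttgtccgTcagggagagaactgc
Trav11n: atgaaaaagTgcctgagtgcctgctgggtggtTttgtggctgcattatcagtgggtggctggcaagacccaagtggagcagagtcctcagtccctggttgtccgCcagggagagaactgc
Trav1 (chr14:52427928-52428876) and Traj33 (chr14:54185358-54185414) form the chain of mucosal-associated invariant T cells. They had 0, 11, 5 and 3 counts and 9, 0, 16 and 0 counts. Counts of single segments do not show which V and J segments were joined, so an invariant chain cannot be read from them. Zbtb16, the transcription factor of both cell types, stood at 0.0292 ± 0.0342 TPM. Trav1 is also the 5′ end of the V array. At the other ends Trav23 (chr14:53977153-53977678) had no count, Traj61 (chr14:54155005-54155076) had 2 counts in replicate 4 alone, and Traj1 is described above.

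The beta chain arrays, set beside the alpha arrays, held more counts in fewer segments. Trbv segments had 102.4 ± 13.6 CPM in 35 segments, 20 of them with at least 10 counts in every library, and Trbj segments 21.9 ± 1.55 CPM in 14 segments, 13 of them at that level. The effective number was 16.1 ± 0.340 for Trbv and 12.4 ± 0.970 for Trbj, against 43.5 ± 4.55 for Trav and 26.3 ± 3.68 for Traj, higher for the alpha array in 4 of 4 libraries in both cases. The arrays differ in the number of segments, so these values show their sizes as well as their evenness. Pairs that align to several places were not counted, and 46 of the 128 Trav segments had at most 5% unique windows. Unique windows were not given for Trbv, so the counts do not compare amounts of alpha and beta V RNA.

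Of 24 genes of the alpha chain pathway, listed with earlier results of these data known, 18 reached 1 TPM in every library. Trac stood at 1138 ± 116 TPM, and the beta constant genes Trbc1 and Trbc2 at 567 ± 35.8 and 666 ± 39.5 TPM. The CD3 chains, which carry the receptor's signal, were high, with Cd3d at 331 ± 38.4 TPM and Cd3e at 173 ± 11.6 TPM. Genes of early thymocytes or specific to rearrangement were low. Rag2, a subunit of the recombinase, and Ptcra, the alpha chain surrogate of early thymocytes, had no count, Rag1 stood at 0.0671 ± 0.0676 TPM, and Dntt, which adds bases at the joints, at 1.37 ± 0.820 TPM. The end-joining genes, which also repair other DNA breaks, were present, among them Xrcc5 at 89.8 ± 1.81 TPM, Xrcc6 at 64.3 ± 1.81 TPM and Poll at 62.8 ± 4.32 TPM.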

How the data were processed

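The authors deposited raw counts of read pairs per gene for each library, counted by featureCounts 1.4.6-p4 on STAR alignments with GENCODE M13, per the file headers; the labels name mm10. The recorded options count pairs with both ends mapped on the reverse strand (setting 2) and leave out pairs that align to several places or overlap several genes. Settings of the aligner and any removal of duplicates were not given in the sources used here. Library protocol names differ (total RNA in the assay title, poly(A)+ RNA in the protocol).

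Symbols and transcript sequences came from GENCODE M21 (mm10), which matched all 188 segments and left 224 of 50600 genes without a symbol. Of other V genes, 2 carry symbols outside the naming rule and were left out. Shares, CPM and TPM were computed from the deposited counts and exon lengths (Python 3.11.15, numpy 2.4.6, pandas 2.3.3, scipy 1.17.1). Windows of 50 bases were compared between T cell receptor transcripts. Intervals are 95% Wilson intervals and a count of 0 was read as up to 3 counts. The test of excess variation used edgeR 4.0.16 under R 4.3.3, with filterByExpr (minimum count 10), TMM, an intercept-only design and the trended dispersion. The 3 contrasts were tested by exact permutation (all sign flips) and adjusted by Benjamini-Hochberg. All libraries entered every fit.

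Members and lists were chosen with earlier results of these data known. Named segments were the 15 V and 12 J segments of highest mean share, the ends of both arrays, the invariant chain segments, any called for variation, and those with no count where 10 or fewer. Alternatives are given in the closing section.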

Additional observations from a re-analysis of the deposited data

Results flagged for a closer look

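Of 68 values examined per library, 6 had 1 library set apart under Dixon's 95% limit. Chance picks out about 1 in 20 groups in this way, and the number of 6 was not tested against it. Intervals cover counting error only. The reasons were not tested.

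In replicate 1, Trav14-1 held 7.34% of V counts (95% Wilson interval 6.27% to 8.56%), against 2.12% to 2.87% in the others, and Trav12-3 held 4.34% (3.53% to 5.32%), against 1.41% to 1.89%. The 5 V segments of highest mean share held 29.0% there, against 24.6% to 25.1%, and the effective number of V segments was lowest there, at 36.7 against 45.1 to 46.6. These values of replicate 1 rest on 2004 V counts, more than the 1846 of replicate 4. In replicate 2, the 32 V segments from Trav12d-3 to Trav9n-3 held 11.1% of V counts, against 14.97% to 15.7% in the others. Traj61 had a share of 0.692% in replicate 4 and 0 elsewhere, from 2 counts.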

How the results depend on the processing

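The 3 contrasts kept their direction when each replicate was left out, with ranges of 2.33 to 2.65 (J, log2, nearer against farther segments), 1.68 to 1.80 (V) and 2.61 to 2.93 (V against J total), where 3 libraries allow no p under 0.25. Per kilobase the V against J total reversed to -1.01. The divisor was the summed exon length, 47678 bases over 128 V segments and 3570 over 60 J segments. It thus reflects the number of segments, with and without counts, as well as the longer V exons. With the outermost segments alone (20 J, 42 V at each end) the position contrasts were 3.07 and 2.82, and with functional segments only 2.13 and 1.75. The V contrast was 0.79 with segments of over 5% unique windows and 0.17 without duplicated copies and their namesakes. Each reduced set, also the functional one, was split anew at its own middle, so the dividing line moved with the set.

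The number of J segments used, 5 at 10 counts in every library, was 22 at 1 count, 22 at a share of 0.1% and 2 with counts scaled to the smallest total. It was 5 to 8 with each replicate left out, 8 without replicate 4. The V number, 38, was 33 to 53 under the same settings and 39 to 46 with each replicate left out. By the inverse Simpson index the effective numbers were 32.8 (V) and 19.6 (J), and with each replicate left out by Shannon entropy 42.5 to 45.8 and 24.8 to 27.8. The number of segments called for excess variation was 0 with relative log expression size factors, a filter at a mean of 1 CPM, no filter, and each replicate left out, by edgeR. Of 178 alternatives for the mean shares of named segments, 175 moved by less than 1 SD, which is wide for J segments. Some of these still moved by over 1.5 times: without replicate 2, Traj1 went from 6.34% to 3.46%, Traj9 from 3.47% to 2.05%, Traj24 from 2.84% to 1.66% and Trav1 from 0.136% to 0.0860%. Traj33 went from 1.115% to 0.667% without replicate 3, Traj61 from 0.173% to 0 without replicate 4, and Traj1 to 11.7% per kilobase.

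No paired analysis was possible because the libraries form 1 group, with no other group to pair by replicate number. The contrasts compare sums within a library. Depth limits J most: with 289 to 650 J counts per library, a J segment without counts is limited to 0.462% to 1.04% of J counts, by library.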
